A study of Mus musculus with 3 samples.

Results

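Type 1 conventional dendritic cells were examined in single-cell RNA libraries of ectopic tissue masses, which form where a gel is implanted outside the skeleton. A cell was taken as a type 1 dendritic cell when it had at least 1 unique molecular identifier (UMI, a tag that marks 1 captured molecule) from at least 2 of Xcr1, Clec9a and Flt3. It also had at least 500 UMIs, at least 300 genes and at most 15% mitochondrial UMIs, under 1% of its UMIs from the collagen genes Col1a1, Col1a2 and Col3a1, and no UMI of Cd3e (T cells) or Cd79a (B cells). This rule found 166 cells among the 21148 cells that passed the depth and mitochondrial filters. Because the rule reads the same cells, the levels of Xcr1, Clec9a and Flt3 are given as a description and support nothing.

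The masses were taken on day 5 after implantation from mice of the outbred CD1 strain, minced and dissociated. The first library came from masses around Matrigel, a basement membrane gel, with nothing added. The second came from implants of Matrigel with rhBMP2 (recombinant human BMP2, a bone-inducing growth factor) in mice given pre-immune control IgG. The third came from the same BMP2 implants in mice given an antibody that neutralizes activin A, a ligand of the TGF-beta family. They are called the Matrigel, IgG and antibody libraries, and the design asks what BMP2 and what blockade of activin A change. Each group had 1 library and how many animals stand behind it is not given in the sources used, so no test between libraries was possible and 95% intervals cover counting error only. The IgG and Matrigel libraries differ in BMP2 and in IgG together, which cannot be told apart, and both comparisons use the same IgG library.

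Type 1 dendritic cells take up material from dying cells, present its peptides on MHC class I and so prime CD8 T cells, a process called cross-presentation. Their development depends on the transcription factors Irf8, Batf3 and Id2 and on the growth factor receptor Flt3. Clec9a is a receptor for actin exposed by dead cells, Xcr1 is the receptor for the chemokine Xcl1 made by T and natural killer cells, and Tlr3 senses double-stranded RNA in endosomes.

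The rule genes lie on 3 chromosomes of GRCm38, the assembly that mm10 names: Xcr1 (ENSMUSG00000060509) on chromosome 9, 123852315 to 123862029, minus strand; Clec9a (ENSMUSG00000046080) on chromosome 6, 129408862 to 129424763, plus strand; and Flt3 (ENSMUSG00000042817) on chromosome 5, 147330741 to 147400489, minus strand. Irf8, the regulator followed below, lies on chromosome 8, 120736358 to 120756694. Batf3 binds with Irf8 to a composite element, an interferon regulatory factor core GAAA followed at once by the AP-1 site TGANTCA, where N is any base. The 250 bases before the start of 2 marker genes, and of Zbtb46, a transcription factor of conventional dendritic cells, are printed because these genes were read as identity genes here. They come from RefSeq on GRCm38.p6, run 5′ to 3′ on the gene's strand, and the composite element is in capitals where it occurs.
Xcr1, chr9:123862030-123862279, minus strand: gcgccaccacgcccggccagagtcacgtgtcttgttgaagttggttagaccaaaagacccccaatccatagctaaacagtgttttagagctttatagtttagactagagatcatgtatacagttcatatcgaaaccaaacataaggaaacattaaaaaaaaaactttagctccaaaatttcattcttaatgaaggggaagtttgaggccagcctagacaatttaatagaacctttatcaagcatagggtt
Clec9a, chr6:129408612-129408861, plus strand: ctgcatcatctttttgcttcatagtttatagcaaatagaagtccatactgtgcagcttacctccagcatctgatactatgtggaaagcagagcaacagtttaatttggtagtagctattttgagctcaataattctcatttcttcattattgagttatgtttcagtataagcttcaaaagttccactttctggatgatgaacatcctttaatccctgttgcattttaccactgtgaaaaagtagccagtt
Zbtb46, chr2:181424389-181424638, minus strand: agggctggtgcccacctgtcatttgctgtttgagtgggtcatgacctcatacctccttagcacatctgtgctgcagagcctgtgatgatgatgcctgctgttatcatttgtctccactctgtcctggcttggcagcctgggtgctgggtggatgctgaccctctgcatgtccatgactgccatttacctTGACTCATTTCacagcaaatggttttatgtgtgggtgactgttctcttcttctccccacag
The window of Zbtb46 lies inside the annotated gene and holds 1 match on its opposite strand, beginning 61 bases before the start used by RefSeq. Searched on both strands, the composite element was present in 33 of 32851 such windows (0.100%) and in 1 of the 28 windows matched to 24 of 30 genes typical of type 1 dendritic cells, that of Zbtb46. The AP-1 site alone, TGANTCA, which overlaps the composite element, was in 6.75% of all windows and in the same single window of these genes. A match is a description of the letters, and its absence says nothing about binding elsewhere.

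The libraries held 38163880 to 46317250 UMIs, and their median depth over all cells was 3400, 4193 and 3683 UMIs per cell for Matrigel, IgG and antibody. The type 1 dendritic cells had medians of 4240, 7444 and 9513 UMIs (ranges 600 to 11599, 1688 to 19197 and 2009 to 16869) and summed to 503126, 253390 and 164289 UMIs. Depth therefore differed between the libraries in these cells more than over all cells. Levels below are CPM, in which every sum is brought to one common total, and they compare 1 gene across libraries and classes and not 1 gene with another. Pairs of libraries shared 7 to 19 barcodes. The barcodes of 2 Matrigel members also occurred in the antibody library, and no barcode was a member in both.

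Members were few and differed in which rule genes they showed. In the Matrigel library 47 of 113 members had all 3 rule genes, 39 had Xcr1 and Flt3, 18 had Xcr1 and Clec9a, and 9 had Clec9a and Flt3. The corresponding numbers were 18, 13, 2 and 2 of 35 in the IgG library and 4, 12, 0 and 2 of 18 in the antibody library. Xcr1 stood at 513, 564 and 438 CPM, Clec9a at 203, 142 and 79.1 CPM, and Flt3 at 332, 359 and 310 CPM in the Matrigel, IgG and antibody libraries. These transcripts were scarce in mesenchymal cells, B cells and neutrophils. Mesenchymal cells held 0.731, 0.143 and 0 CPM of Xcr1, antibody B cells 11.1 CPM of Flt3 from 14 UMIs, and IgG neutrophils 1 UMI of Clec9a. Cd209a dendritic cells, a class defined below whose rule reads Flt3, held 409, 95.7 and 55.4 CPM of the 3 genes together. With 2 or 3 rule genes, 4 Matrigel cells, 0 IgG cells and 1 antibody cell lay outside the gate. At the edge of the rule, cells with only Xcr1 numbered 33, 8 and 5, with only Clec9a 11, 5 and 1, and with only Flt3 46, 71 and 31. In the Matrigel library Irf8 was at 1936 CPM in the cells with Xcr1 alone, 2149 CPM with Clec9a alone, 1112 CPM with Flt3 alone, 3139 CPM in members with 2 rule genes and 2926 CPM in members with 3.

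Genes that the rule did not read carried the type 1 label, to unequal degrees. The label was checked by the share of cells with at least 1 UMI, set beside the same share in macrophages of the library, which had median depths of 3237, 4025 and 5313 UMIs. Irf8 was detected in 110 of 113 Matrigel members (97.3%), 35 of 35 IgG members and 18 of 18 antibody members, against 43.0%, 52.7% and 55.0% of macrophages. Wdfy4, a protein required for cross-presentation of cell-associated antigen, was detected in 97.3%, 97.1% and 88.9% of members and in 12.7%, 11.1% and 11.0% of macrophages. After thinning each cell to 1000 UMIs, with 2 Matrigel members under that depth left out, the Wdfy4 shares were 59.5%, 57.1% and 55.6% against 3.75%, 2.85% and 2.17%. Itgae, the integrin CD103 of tissue type 1 dendritic cells, was detected in 67.3%, 91.4% and 77.8% of members and in 0.0479%, 0.108% and 0.256% of macrophages. Tlr3 was detected in 61.1%, 42.9% and 55.6% of members, in 4.50%, 6.52% and 7.33% of macrophages and in 0 of 24, 0 of 89 and 3 of 44 Cd209a dendritic cells, a second dendritic class defined below. Cd8a, which marks type 1 dendritic cells of lymphoid organs, was detected in only 3, 3 and 2 members. Cd209a dendritic cells held Irf8 in 33.3%, 42.7% and 43.2% of cells and Wdfy4 in 33.3%, 44.9% and 54.5%. Naaa was in 98.2%, 97.1% and 100% of members, against 12 of 24, 79 of 89 and 40 of 44 of these cells. Batf3 was in 53.1%, 77.1% and 83.3% against 4.17%, 44.9% and 65.9%, and Cadm1 in 67.3%, 71.4% and 44.4% against 41.7%, 20.2% and 11.4%. In the IgG and antibody libraries Wdfy4, Naaa and Batf3 separated members less from this class than from macrophages.

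Most defining markers of other cells were low or absent in the members. Ccr7 and Fscn1, which mature migrating dendritic cells turn on, had 0 UMIs in every member. A count of 0 allows a share of cells with a UMI of up to 2.65% of Matrigel, 8.57% of IgG and 16.7% of antibody members, and it does not limit the share of cells that express the gene. The neutrophil gene S100a8, the natural killer receptor Ncr1 and the B cell gene Ms4a1 were also at 0. The B cell list, with 2, 1 and 2 of its 6 genes detected, summed to 225, 111 and 79.1 CPM in members and 157, 95.3 and 52.8 CPM in macrophages. Nearly all of it was Ighm, at 219, 111 and 67.0 CPM in members, 135, 70.3 and 30.7 CPM in macrophages and 497, 827 and 2334 CPM in B cells, the first of these from 3 cells. Its part in the results was not tested. The myeloid lysozyme gene Lyz2 was seen in 91.2%, 74.3% and 77.8% of members and in 99.9%, 97.7% and 98.1% of macrophages. Siglech, a plasmacytoid dendritic cell receptor, was found in 4, 1 and 0 members and Cd209a in 4, 1 and 1. C1qa, a complement gene of macrophages, was found in 9 (7.96%), 4 (11.4%) and 3 (16.7%) members, against 85.3%, 79.9% and 73.7% of macrophages. Col1a1 UMIs were seen in 36, 17 and 6 members (31.9%, 48.6% and 33.3%), against 36.0%, 53.6% and 27.1% of macrophages. The rules of both classes capped collagen UMIs, and the source of these UMIs was not tested. At least 5 UMIs of cell cycle genes were held by 3 of 113 (2.65%), 2 of 35 (5.71%) and 3 of 18 (16.7%, 3.58 to 41.4) members. Mki67 or Top2a was seen in 8.85%, 8.57% and 11.1% of members, against 12.5%, 10.1% and 11.0% of macrophages.

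**Figure D1:**
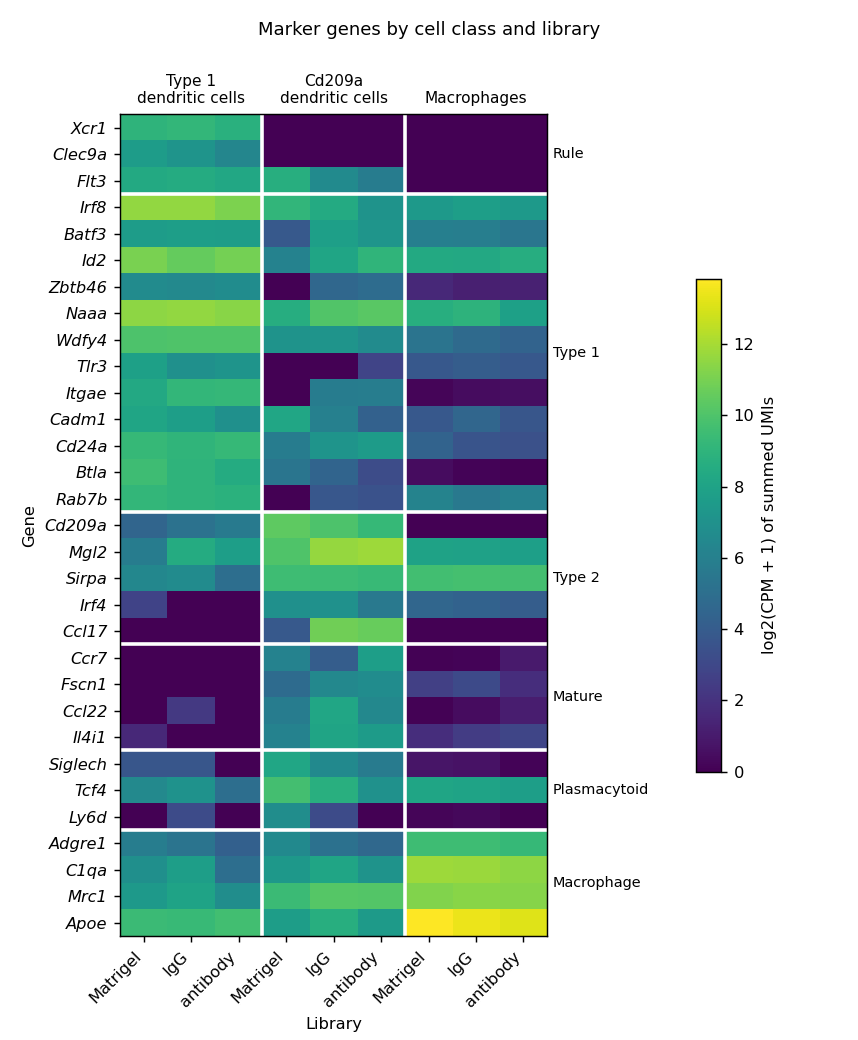
Levels of marker genes (rows, grouped by the cell type they mark) in type 1 dendritic cells, Cd209a dendritic cells and macrophages of the 3 libraries (columns), as log2(CPM + 1) of summed UMIs. Irf8 lay between 2185 and 3070 CPM in type 1 dendritic cells of every library and between 137 and 559 CPM in the other 2 classes. Ccr7 and Fscn1 were at 0 in type 1 dendritic cells. Of the genes drawn, Xcr1, Clec9a, Flt3, Cd209a, Ccl17, Adgre1 and Mrc1 were used to choose the classes.

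The share of type 1 dendritic cells was highest in the Matrigel library and lowest in the antibody library, taken over all cells. They made up 113 of 9223 cells (1.23%, exact Clopper-Pearson 95% interval 1.01 to 1.47) in the Matrigel library, 35 of 5958 (0.587%, 0.410 to 0.816) in the IgG library and 18 of 5967 (0.302%, 0.179 to 0.476) in the antibody library. The IgG share was below the Matrigel share (difference in percentage points -0.638, Newcombe interval -0.934 to -0.331), and the antibody share was below the IgG share (difference -0.286, -0.540 to -0.0457). The order was not detectable at every depth or denominator. After thinning, 21 of 8567 (0.245%), 11 of 5496 (0.200%) and 3 of 5617 (0.0534%) cells met the rule, the IgG minus Matrigel difference was -0.0450 points (-0.202 to 0.134) and the antibody minus IgG difference was -0.147 points (-0.309 to -0.0106). With cells holding a Cd3e or Cd79a UMI left out of the total, the antibody minus IgG difference was -0.237 points (-0.507 to 0.0341). T cells numbered 17, 129 and 460 and B cells 3, 12 and 548, so lymphocytes took a larger part of the antibody library.

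The balance between the 2 dendritic classes followed another pattern. Cd209a dendritic cells are type 2-like cells that passed the same gate, had no Xcr1 or Clec9a UMI and at least 2 of Cd209a, Ccl17 and Flt3, and they numbered 24, 89 and 44. Type 1 dendritic cells were 113 of 137 cells of both classes (82.5%, 75.1 to 88.4) in the Matrigel library, 35 of 124 (28.2%, 20.5 to 37.0) in the IgG library and 18 of 62 (29.0%, 18.2 to 41.9) in the antibody library. On this denominator the IgG and antibody libraries differed by 0.806 points, with an interval of -12.2 to 15. The Cd209a rule also needs detected transcripts, and its cells had median depths of 2803.5, 6134 and 10149.5 UMIs. The share of both dendritic classes was not taken after thinning. Fewer cells of a class and fewer detected rule transcripts per cell cannot be told apart in these shares.

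**Figure D2:**
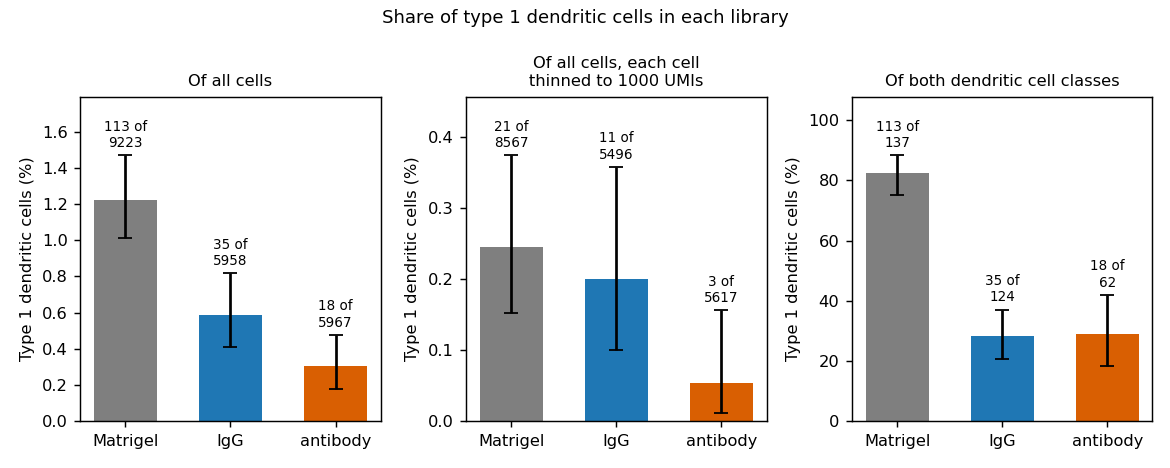
Share of type 1 dendritic cells in percent (y axis) in each library (x axis) of all cells, of all cells after thinning to 1000 UMIs, and of both dendritic classes; bars are the share, error bars the exact 95% interval and the numbers above them the cells. The Matrigel bar is at 1.23% in the left panel, the Matrigel and IgG intervals overlap after thinning, and the Matrigel bar stands at 82.5% against 28.2% and 29.0% in the right panel.

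Against the Cd209a dendritic cells, the type 1 dendritic cells were set apart by their known identity programme. The comparison used UMIs summed per class and library, with the library as a block and macrophages in the same fit. A call is therefore a mean difference over 3 libraries of different treatment and need not hold in each. Of 11204 genes tested with edgeR's quasi-likelihood test at a Benjamini-Hochberg adjusted p of 0.05, 495 were higher (4.42%) and 563 lower (5.02%) in type 1 dendritic cells, with a median log2 fold change of -0.03. Without composition scaling the split was 384 higher and 739 lower and the median -0.18, so small differences below are read with that shift in mind. With 1 library left out, and 6649 to 7126 genes then tested, the counts were 142 and 173 without IgG, 181 and 215 without antibody, and 390 and 394 without Matrigel. Of 23 tested genes typical of type 1 dendritic cells, a list chosen with results of these data known, 21 were higher and none lower, with a median log2 fold change of 3.23 (Ly75 and Batf3 did not pass). Genes that any class rule used are left out of these counts.

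Transcription factors showed the separation first. Irf8 stood at 3045, 3070 and 2185 CPM in type 1 dendritic cells (Matrigel, IgG and antibody, the order used throughout), 559, 346 and 137 CPM in Cd209a dendritic cells and 176, 217 and 169 CPM in macrophages. The lowest type 1 value was above the highest value of either other class. Its log2 fold change was 3.37 ± 0.23 (SE) against Cd209a dendritic cells (edgeR adjusted p = 1.8e-18). Id2, a repressor of lymphoid and plasmacytoid fate, was at 2137, 1515 and 1954 CPM against 68.2, 284 and 525 CPM, a log2 fold change of 2.72 ± 0.25. Zbtb46 was at 99.4, 90.8 and 104 CPM against 0, 23.9 and 28.7 CPM (2.10 ± 0.41, edgeR adjusted p = 0.000126). Mycl, a MYC family member that supports dendritic cell growth, and the repressor Bcl6 were also higher (log2 fold changes 4.40 ± 0.63 and 2.20 ± 0.30). Batf3 did not pass: it stood at 203, 217 and 207 CPM against 13.6, 227 and 148 CPM, so only the Cd209a dendritic cells of the Matrigel library were far below (0.51 ± 0.27, edgeR adjusted p = 0.3). Irf4 and Zeb2, factors of the type 2 lineage, were lower by edgeR: Irf4 was at 5.96, 0 and 0 CPM against 123, 126 and 47.2 CPM, and Zeb2 at 79.5, 82.9 and 6.09 CPM against 545, 514 and 373 CPM. Of 17 dendritic cell transcription factors 5 were higher and 5 lower, with a median of -0.22.

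Surface and sensing genes were among the largest differences. Tlr3 (chromosome 8, 45395665 to 45411080) was at 233, 122 and 140 CPM in type 1 dendritic cells and at 0, 0 and 6.15 CPM in Cd209a dendritic cells, a log2 fold change of 6.09 ± 0.54 (edgeR adjusted p = 7.82e-14). Btla, an inhibitory receptor for the ligand HVEM, was at 737, 509 and 359 CPM against 40.9, 20.7 and 8.20 CPM (4.87 ± 0.31). Itgae was at 320, 568 and 584 CPM against 0, 55.8 and 57.4 CPM (3.57 ± 0.27, edgeR adjusted p = 1.3e-16). Every one of these genes was higher in all 3 libraries. Rab7b, a GTPase of late endosomes, was at 572, 505 and 463 CPM against 0, 12.8 and 10.3 CPM (5.6 ± 0.33). Havcr2, which encodes the checkpoint receptor TIM-3, was at 133, 217 and 237 CPM against 13.6, 35.1 and 14.4 CPM (3.66 ± 0.39). Among the 10 largest increases were also the septin Sept3 (4.18 ± 0.27), the actin-binding Dbn1 (3.97) and the lysosomal thioesterase Ppt1 (3.51 ± 0.26). Of 15 innate sensors and adaptors 2 were higher and 2 lower, so Tlr3 did not stand for its list (median -0.18).

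Genes of the other dendritic classes were low. Of 11 tested type 2 genes 9 were lower and 1, the inhibitory lectin Clec12a, was higher (median -2.35). Sirpa, the CD47 receptor that marks type 2 cells, was at 83.5, 103 and 30.4 CPM against 750, 710 and 652 CPM (-3.02 ± 0.26, edgeR adjusted p = 1.66e-14), and the lectin Mgl2 at 55.7, 363 and 219 CPM against 1050.1, 3165 and 3541 CPM. Of 17 tested genes of mature dendritic cells 10 were lower and none higher (median -2.46). Ccr7, the receptor that guides dendritic cells to lymph nodes, was at 0 CPM in type 1 dendritic cells of all libraries and at 68.2, 16.0 and 213 CPM in Cd209a dendritic cells (edgeR adjusted p = 1.22e-07). It came from 1, 3 and 4 cells of the latter class. Of 6 plasmacytoid genes 4 were lower, and here the Matrigel Cd209a dendritic cells stood apart, with Siglech at 286 CPM against 92.5 and 53.3 CPM in the IgG and antibody libraries and 5 of 24 cells holding it. The part of such cells in the class difference was not tested.

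Against macrophages the gap was wider. Macrophages were cells of the same gate with no UMI of Xcr1, Clec9a, Flt3, Cd209a or Ccl17 and at least 2 of Adgre1, Mrc1 and Mertk, 7982 cells in all. Of the same 11204 genes 1101 were higher (9.83%) and 1617 lower (14.4%) in type 1 dendritic cells, with a median log2 fold change of -0.16 (-0.25 without composition scaling, with 968 higher and 1818 lower). The counts were 609 and 658 without the IgG library, 713 and 829 without the antibody library, and 740 and 805 without the Matrigel library. Of 23 type 1 genes 22 were higher, Cd36 being the exception, with a median of 5.14, and of 9 tested macrophage genes all 9 were lower (median -4.26). Batf3 passed here, at 62.5, 58.5 and 41.9 CPM in macrophages (2.02 ± 0.24, edgeR adjusted p = 2.6e-10). Itgae was at 0.130, 0.354 and 0.419 CPM in macrophages (10.64 ± 0.32), and Bcl11a, a transcription factor of dendritic progenitors, at 2.60, 1.42 and 3.27 CPM against 131, 107 and 152 CPM (5.71 ± 0.33). Bcl11a did not separate the dendritic classes (-0.22 ± 0.30, edgeR adjusted p = 0.769). Among the 10 largest decreases were the folate receptor Folr2 (-6.29 ± 0.39), the eosinophil chemokine Ccl24 (-5.95 ± 0.43), the haemoglobin scavenger receptor Cd163 (-5.76 ± 0.42) and the lipid receptor Trem2 (-5.24 ± 0.44).

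Some genes of the MHC class I pathway were higher in type 1 dendritic cells than in both other classes. Tap1, a subunit of the peptide transporter, was at 252, 426 and 310 CPM, against 123, 206 and 178 CPM in Cd209a dendritic cells (1.16 ± 0.23, edgeR adjusted p = 0.000181) and 65.3, 159 and 129 CPM in macrophages (1.64). Its partner Tap2 (1.56 ± 0.25 against Cd209a dendritic cells) and the immunoproteasome subunits Psmb8 (0.82 ± 0.21) and Psmb9 (1.36 ± 0.22) were higher too, as was Rab43, a GTPase needed for cross-presentation (1.33 ± 0.27, edgeR adjusted p = 0.000167). The immunoproteasome subunit Psmb10 did not pass (0.26 ± 0.25, edgeR adjusted p = 0.659), nor did the heavy chain gene H2-K1, which differed by -0.13 from Cd209a dendritic cells (edgeR adjusted p = 0.809). Cybb, a subunit of the oxidase that keeps phagosomes from acidifying, was lower (-2.40 ± 0.34), at 57.6, 27.6 and 18.3 CPM against 505, 220 and 86.1 CPM. Of the 18 class I and cross-presentation genes 6 were higher and 1 lower than in Cd209a dendritic cells, with a median of 0.08 that was -0.06 without composition scaling, and 6 were higher and 3 lower than in macrophages (median -0.01).

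MHC class II genes were shared by the dendritic classes. Their summed level was 58862, 55594 and 56961 CPM in type 1 dendritic cells, 70940, 55291 and 55483 CPM in Cd209a dendritic cells and 23142, 20239 and 17960 CPM in macrophages. Of 11 genes 10 were higher than in macrophages (median 1.80) and 1, the protease Ctss, was lower. Against Cd209a dendritic cells 2 were higher and 2 lower, with a median of 0.14 that was -0.03 without composition scaling. H2-Aa differed by 0.30 ± 0.16 (edgeR adjusted p = 0.322) and the invariant chain Cd74 by -0.01 (edgeR adjusted p = 0.992). H2-Ob, which with H2-Oa restrains peptide loading, was higher (1.18 ± 0.31, edgeR adjusted p = 0.0054), and Ctss, which cleaves the invariant chain, was lower (-1.15 ± 0.19, edgeR adjusted p = 4.42e-06).

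Receptors and secreted factors showed a narrow set in type 1 dendritic cells. Of 23 tested cytokine and chemokine genes none was higher and 6 were lower than in Cd209a dendritic cells, with a median of -1.10, or -0.30 with genes at 0 set to their bound. Il12b, the p40 subunit of interleukin-12, and Ccl17 had 0 UMIs in the members of all libraries. The chemokine receptor Cxcr3 was at 93.4, 78.9 and 42.6 CPM against 13.6, 3.19 and 0 CPM (4.62 ± 0.67, edgeR adjusted p = 2.83e-07), whereas Ccr2 was lower (-1.52 ± 0.25). Of 11 growth factor receptors only Kit was higher (3.83 ± 0.61) and 5 were lower, among them the GM-CSF receptor chain Csf2rb (-1.55 ± 0.24) and the CSF1 receptor Csf1r (-2.26 ± 0.29). Of 14 costimulatory and checkpoint genes 3 were higher and 4 lower. Cd86 was higher (0.93 ± 0.27, edgeR adjusted p = 0.015), and Cd40, Cd274 (PD-L1) and Pdcd1lg2 (PD-L2) were lower (-1.94 ± 0.36, -1.59 ± 0.41 and -3.63 ± 0.47).

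Within type 1 dendritic cells the libraries were then compared 1 gene at a time. A gene was measured with at least 10 UMIs in either library, and it was counted as different where the ratio was 1.5-fold or more in either direction and its exact binomial interval excluded 1. Between the IgG and Matrigel libraries 5816 genes were measured, of which 290 were higher (4.99%) and 298 lower (5.12%) in the IgG library, with a median log2 ratio of -0.01. Between the antibody and IgG libraries 3792 genes were measured, of which 195 were higher (5.14%) and 192 lower (5.06%) in the antibody library, with a median of -0.05. With 35 IgG and 18 antibody members a single cell can carry a sum, so the share held by the highest cell is given where it was large.

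Most identity genes were not counted as different between libraries, but a larger part of them was counted than of all measured genes. Irf8 was at 3045, 3070 and 2185 CPM, a ratio of 1.01 (0.924 to 1.10) between IgG and Matrigel and 1.41-fold lower (1.24 to 1.60) in the antibody than in the IgG library. Per cell, Irf8 UMIs per 10000 ran from 0 through a median of 32.4 to 66.7 in Matrigel members, from 2.60 through 33.6 to 55.0 in IgG members and from 9.96 through 22.2 to 30.6 in antibody members, so the cells overlapped. Batf3 had ratios of 1.07 (0.757 to 1.5) and 0.953. Of the type 1 genes outside the rule 2 of 25 measured were higher and 3 lower in the IgG library (median -0.17). In the antibody library 2 of 24 were higher and 5 lower (median -0.20). Over all measured genes the shares were 4.99% higher and 5.12% lower, and then 5.14% higher and 5.06% lower. Itgae was 1.78-fold higher (1.41 to 2.24) in the IgG than in the Matrigel library with a ratio of 1.03 (0.786 to 1.34) between antibody and IgG. Tlr3 was 1.90-fold lower (1.27 to 2.92) in the IgG library. Kit, at 87.5, 43.4 and 152 CPM, and Mycl, at 125, 55.3 and 140 CPM, were both lowest in the IgG library. The growth receptor Kit was then 3.51-fold higher in the antibody library (1.66 to 7.89).

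Of the named genes the highest IgG to Matrigel ratio was that of Plet1, a surface protein found on epithelial progenitors and on some tissue dendritic cells (chromosome 9, 50494525 to 50505482). It had 2 UMIs in 1 of 113 Matrigel members, 84 UMIs in 11 of 35 IgG members and 193 UMIs in 13 of 18 antibody members, or 3.98, 332 and 1175 CPM. The IgG level was 83.4-fold above the Matrigel level (22.4 to 700), and the antibody level was 3.54-fold above the IgG level (2.73 to 4.64). Cd209a dendritic cells showed the same order, with 0, 702 and 997 CPM, while macrophages were at 0, 1.53 and 6.12 CPM. Plet1 did not differ between the dendritic classes by edgeR (-0.35, adjusted p = 0.544).

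Lgals3, the lectin galectin-3, was at 223, 943 and 1503 CPM and was seen in 52, 30 and 17 members. It was 4.24-fold higher (3.37 to 5.35) in the IgG than in the Matrigel library and 1.59-fold higher (1.33 to 1.91) in the antibody than in the IgG library. Gnb4, a G protein subunit, had levels of 49.7, 257 and 195 CPM and was 5.16-fold higher (3.21 to 8.55) in the IgG library. Il1b, the inflammatory cytokine interleukin-1 beta, was at 71.6, 217 and 493 CPM, 3.03-fold higher (1.96 to 4.75) and then 2.27-fold higher (1.59 to 3.26). Other gains in the IgG library rested on few cells: 1 cell held 67.4% of the Mgl2 UMIs and 1 cell held 44.0% of those of Cd207, the lectin langerin, which was 3.61-fold higher (2.53 to 5.21) there and 4.21-fold lower (2.39 to 8.01) in the antibody library.

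Several genes with high Matrigel levels were lower in the IgG library. Ccr2, the receptor that brings monocytes out of the marrow, was at 668, 229 and 116 CPM, 2.92-fold lower (2.20 to 3.93) in the IgG than in the Matrigel library and 1.98-fold lower (1.16 to 3.52) in the antibody than in the IgG library. The lysozyme gene Lyz2 was at 2232, 671 and 797 CPM. It was 3.33-fold lower in the IgG library (2.83 to 3.93), with a ratio of 1.19 (0.939 to 1.5) between antibody and IgG. In the antibody library 1 cell held 61 of the 131 Lyz2 UMIs, and 1 Matrigel cell held 23.5% of those of its library. Lyz1, at 308 and 23.7 CPM in the Matrigel and IgG libraries, was 13-fold lower (5.84 to 36.0), with 37.4% of its Matrigel UMIs in 1 cell. Of 4 measured monocyte genes Ccr2 was lower and Plac8 higher (43.7 and 118 CPM), with a median log2 ratio of -0.42. Of 9 macrophage genes Lyz2 was lower and C1qa and Pf4 higher, with a median of 0.39. The C1qa gain rested on few cells: 1 cell held most of its IgG UMIs. C1qa was at 425 CPM in IgG members with 2 rule genes and at 7.78 CPM in those with 3. The ribonuclease gene Ear2 was 10.7-fold lower, from 30 Matrigel to 3 IgG cells. The interferon gamma receptor chain Ifngr1 had levels of 342, 114 and 140 CPM and was 2.99-fold lower (2.01 to 4.59) in the IgG library. Sgk1, a kinase induced by glucocorticoids, was at 274, 78.9 and 231 CPM. Of 10 measured growth factor and cytokine receptors 4 were lower and none higher in the IgG library.

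In the antibody library the highest ratio with UMIs on both sides was that of Ifitm1, a membrane protein induced by interferon. It had 5 UMIs in 2 Matrigel members, 8 UMIs in 3 IgG members and 291 UMIs in 12 antibody members, 56.1-fold above the IgG level (28.1 to 131). Rgs1, a brake on chemokine receptor signalling, had 0 UMIs in the IgG members and 243 CPM in those of the antibody library, 20.6-fold above a floor of 3 counts per library. The exact interval of that ratio began at 16.0, so the level was at least 16.0-fold higher by counting error, but 52.5% of its UMIs were in 1 of 5 cells. Tnf was at 39.8, 35.5 and 189 CPM, 5.31-fold above IgG (2.47 to 12.7) and seen in 9 of 18 antibody members. Timd4, a receptor for phosphatidylserine on dying cells, was at 39.8, 75 and 335 CPM, 4.46-fold above IgG (2.61 to 7.97). Nfe2l2, the regulator of the oxidative stress response, was at 73.5, 35.5 and 225 CPM, 6.34-fold above IgG (3.01 to 14.9). In the 18 IgG and 4 antibody members with all 3 rule genes Tnf and Nfe2l2 no longer met the call, at log2 ratios of 2.24 and 1.99. Among the genes lower in the antibody library, Ifi27l2a was 6.63-fold below IgG (3.34 to 15) with 45.7% of its IgG UMIs in 1 cell, and 51.5% of the IgG UMIs of Tcf4 were in 1 cell. Sirpa was lower in the antibody sum (103 against 30.4 CPM), but its log2 ratio was 1.42 once members with Siglech or macrophage UMIs were left out, so its direction rested on those cells.

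**Figure D3:**
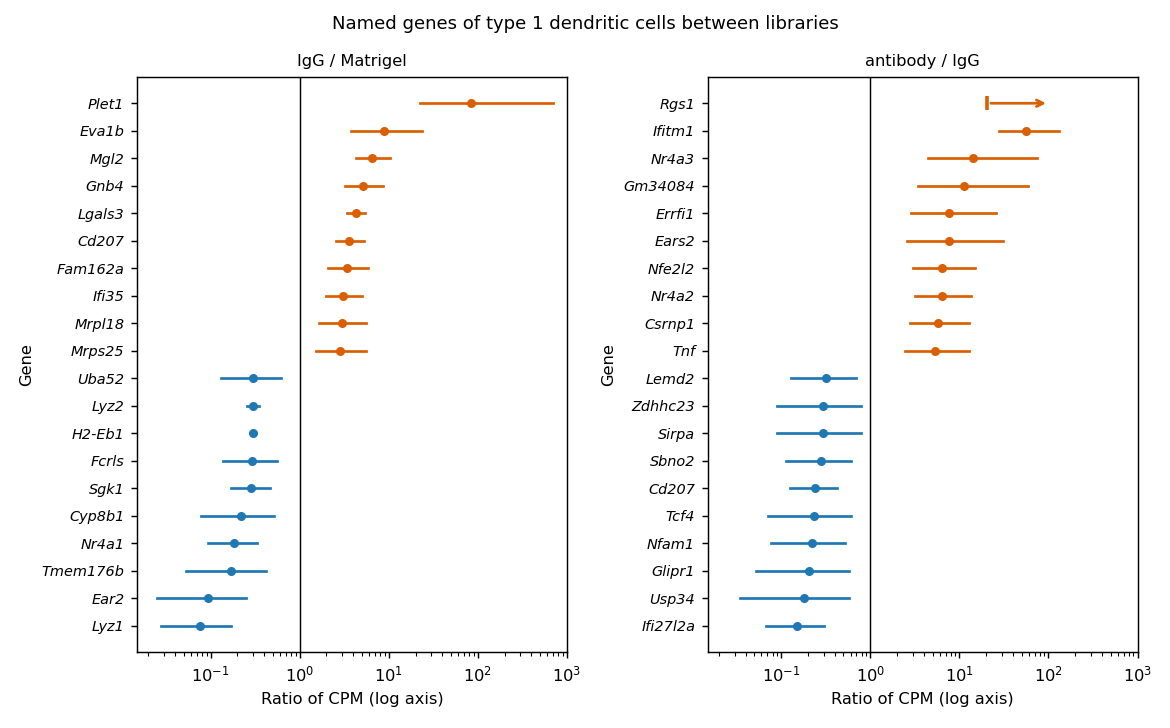
Ratios of CPM between libraries (x axis, log scale) for the 10 highest and 10 lowest named genes (y axis) within type 1 dendritic cells, IgG over Matrigel at left and antibody over IgG at right; lines are exact binomial 95% intervals and the arrow starts at the ratio to a floor of 3 counts. Plet1 is at 83.4 in the left panel and Ifitm1 at 56.1 in the right panel, with Rgs1 drawn from 20.6.

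Immediate early genes, which are switched on within minutes of a stimulus and also during tissue dissociation, were lowest in the IgG library. Of 18 measured genes 10 were lower and 1, Ier3, higher in the IgG than in the Matrigel library (median log2 ratio -0.66), and 10 were higher and none lower in the antibody than in the IgG library (median 0.67). These directions share the IgG library. Fos was at 696, 383 and 1108 CPM. It was 1.82-fold lower (1.45 to 2.30) from Matrigel to IgG and 2.89-fold higher (2.25 to 3.74) from IgG to antibody. The nuclear receptor Nr4a1 was at 256, 47.4 and 201 CPM, in 66 of 113, 10 of 35 and 8 of 18 cells. It was 5.41-fold lower (3.0 to 10.8) and then 4.24-fold higher (2.14 to 9.02). Its relative Nr4a2 was at 133, 43.4 and 274 CPM. Ier3 ran in 1 direction instead, at 143, 253 and 457 CPM. Per member, the list took a median of 58.9, 36.4 and 65.8 UMIs per 10000 (ranges 3.90 to 158, 0 to 87.0 and 12.4 to 161), so single cells of the libraries overlapped. The IgG library was also the lowest in Cd209a dendritic cells (7473, 4826 and 5508 CPM for the list), macrophages (4832, 4403 and 6223), mesenchymal cells (2959, 2302 and 2843) and T cells (6259, 4551 and 7592), beside 5911, 4096 and 6769 CPM in type 1 dendritic cells. The part of dissociation in these levels was not tested.

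Some interferon-stimulated genes and class I processing genes were higher in the IgG than in the Matrigel library. Of 11 measured interferon-stimulated genes 5 were higher and none lower (median 0.59). Gbp2, a guanylate-binding protein induced by interferon gamma, was at 13.9, 63.1 and 97.4 CPM, and Bst2, which tethers budding viruses to the cell, at 105, 178 and 201 CPM. The chemokine gene Cxcl9 was also counted, but 84.4% of its IgG UMIs were in 1 cell. In the antibody library 1 of 10 was higher, Isg15, and 2 lower, with a median of 0.31 that was -0.04 in members with all 3 rule genes and -0.63 with a minimum of 30 UMIs. One antibody cell held 55.2% of the Isg15 UMIs. Of the 18 class I genes 5 were higher and none lower in the IgG library (median 0.14): Tap1 at 252, 426 and 310 CPM (1.69-fold, 1.29 to 2.20), Psmb8 at 664, 1006 and 895 CPM (1.52-fold), Psmb9 (1.55-fold), Psmb10 (1.69-fold) and the chaperone Calr (1.58-fold). The antibody to IgG ratio of Tap1 was 0.728, with an interval that included 1.

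**Figure D4:**
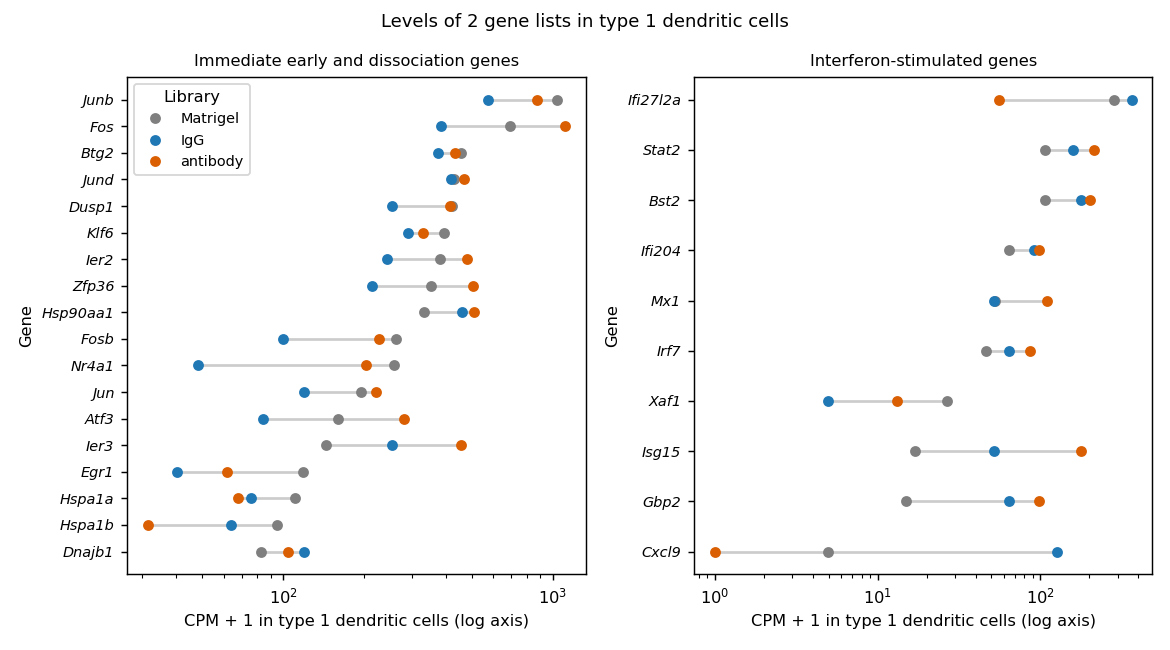
Levels of immediate early and dissociation genes (left) and interferon-stimulated genes (right) in type 1 dendritic cells, as CPM + 1 on a log axis, with 1 point per library and 1 line per gene. Fos lies at 696, 383 and 1108 CPM for Matrigel, IgG and antibody, and Bst2 at 105, 178 and 201 CPM; 1 measured interferon-stimulated gene is not drawn.

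Transcripts of other cells moved between the libraries as well. The mesenchymal list, whose collagens the gate capped, summed to 423, 466 and 164 CPM in type 1 dendritic cells, and 3 of its 4 measured genes (Col1a1, Col1a2 and Sparc) were lower in the antibody than in the IgG library, where mesenchymal cells were 10.4% and 25.8% of cells. The macrophage list summed to 3770, 2494 and 2045 CPM, against 34501 to 40888 CPM in macrophages. Of 9 measured macrophage genes 4 (C1qa, C1qb, C1qc and Mrc1) were lower in the antibody library with a median of -0.92, which was -0.01 with equal weight per cell, and 1 IgG cell held 51.9% of the C1qa UMIs. The part of free RNA or doublets in these genes was not tested. Hypoxia and glycolysis genes had 4 of 15 measured higher in the IgG than in the Matrigel library (Mif, Pkm, Tpi1 and Eno1) and none lower (median 0.40), and Mif, at 264, 501 and 243 CPM, and Tpi1, at 219, 351 and 183 CPM, were lower again in the antibody library.

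H2-Eb1, the beta chain of the class II molecule I-E, departed from the other class II genes. It was at 8539, 2557 and 10378 CPM in type 1 dendritic cells, 3.34-fold lower (3.07 to 3.63) in the IgG than in the Matrigel library and 4.06-fold higher (3.71 to 4.45) in the antibody than in the IgG library. H2-Aa was at 11419, 9468 and 10287 CPM and H2-Ab1, the partner of H2-Aa in I-A, had ratios of 1.10 and, from IgG to antibody, a 1.23-fold lower level. The genes lie close together on chromosome 17, H2-Ab1 at 34257689 to 34269419, H2-Aa at 34282744 to 34287823 and H2-Eb1 at 34305867 to 34316674. Their promoters share the Y box, the CCAAT element of class II genes, written here CTGATTGG. The 250 bases before the start of H2-Aa and H2-Eb1, from RefSeq on GRCm38.p6, are printed with the Y box in capitals to set the gene that departed beside one that did not.
H2-Aa, chr17:34287824-34288073, minus strand: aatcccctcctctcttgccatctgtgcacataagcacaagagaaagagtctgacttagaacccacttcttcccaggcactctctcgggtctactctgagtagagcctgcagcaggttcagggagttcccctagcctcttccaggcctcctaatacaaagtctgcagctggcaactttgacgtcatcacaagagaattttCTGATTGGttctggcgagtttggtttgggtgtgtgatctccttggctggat
H2-Eb1, chr17:34305617-34305866, plus strand: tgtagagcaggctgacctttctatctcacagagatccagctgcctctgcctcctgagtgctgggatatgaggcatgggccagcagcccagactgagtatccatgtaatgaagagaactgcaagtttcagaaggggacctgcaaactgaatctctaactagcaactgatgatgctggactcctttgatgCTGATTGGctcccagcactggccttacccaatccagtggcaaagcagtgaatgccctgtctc
The Y box begins 51 bases before the start of H2-Aa and 62 bases before that of H2-Eb1. Searched on both strands, it was in 3.83% of all 32851 windows and in 3 of the 10 windows matched to 9 of 12 class II genes, those of H2-Aa, H2-Eb1 and H2-Oa. These are reference sequences, not those of the animals.

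Single cells showed that the low H2-Eb1 of the IgG library was not spread evenly. H2-Eb1 UMIs were counted per 100 UMIs of H2-Aa and H2-Ab1 in cells with at least 20 UMIs of the latter pair, and the cut of 10 used next was chosen after the values were seen. All 111 Matrigel members lay between 12.5 and 74.5, with a median of 32.3. Of 34 IgG members 19 lay under 10, the highest of them at 2.59 and 8 at 0, and the other 15 lay between 17.4 and 27.6. The IgG members therefore formed a low and a middle group with an empty interval between them. All 18 antibody members lay between 24.9 and 69.6, with a median of 52.7. Of them 12 were at 40 or more, against 36 of 111 Matrigel and 0 of 34 IgG members. The antibody members also left an empty interval, from 30.2 to 47.3, with these 12 cells above it. Cells under 10 were also common in the other IgG classes: 62 of 79 Cd209a dendritic cells, against 0 of 18 Matrigel and 0 of 41 antibody cells, and 380 of 713 macrophages, against 16 of 1800 and 7 of 704. The IgG macrophages showed no gap at the cut, with values up to 9.76 below it and from 10 above it. Values of 40 or more were held by 6 of 18 Matrigel, 1 of 79 IgG and 16 of 41 antibody Cd209a dendritic cells. The mice are outbred and how many animals a library holds is not stated. Differences between animals and between treatments therefore cannot be told apart in the splits of the IgG and antibody cells or in the H2-Eb1 ratios. H2-Eb1 has a close relative in the same region, and how the counting treated reads shared between them is not given in the labels.

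**Figure D5:**
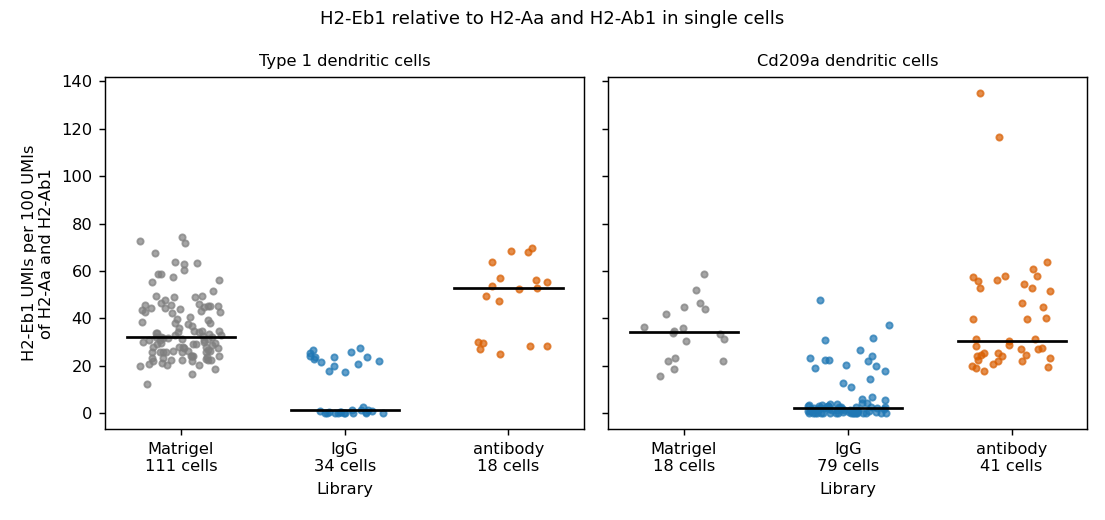
H2-Eb1 UMIs per 100 UMIs of H2-Aa and H2-Ab1 (y axis) in single type 1 dendritic cells (left) and Cd209a dendritic cells (right) of each library (x axis), 1 point per cell with horizontal jitter and the median as a line. The IgG members fall into 19 cells under 10 and 15 cells between 17.4 and 27.6, while all Matrigel and antibody members lie above 10. No antibody member lies between 30.2 and 47.3.

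Inhba and the activin receptor genes Acvr1b and Acvr2a had few UMIs in these cells, while the sum of the wider receptor and SMAD list was above that of the other 2 classes. The 19 activin, TGF-beta and BMP receptors and SMADs summed to 2518, 1835 and 2143 CPM. Cd209a dendritic cells held 505, 668 and 869 CPM of this list and macrophages 897, 840 and 857 CPM. By edgeR 1 of its 16 tested genes was higher and 1 lower than in Cd209a dendritic cells (median 0.12). Against macrophages 1 was higher and 4 lower (median -0.02). The larger sum was therefore not shared by most genes of the list. Inhba, the subunit of activin A, had 0, 1 and 1 UMIs in the members, against 24.0, 672 and 756 CPM in mesenchymal cells. The activin receptor genes Acvr1b and Acvr2a had 11, 5 and 3 UMIs (21.9, 19.7 and 18.3 CPM) and 13.9, 0 and 12.2 CPM, and the TGF-beta receptor Tgfbr2 was at 47.7, 31.6 and 42.6 CPM. Of 9 measured receptors and SMADs 1, Bmpr2, was lower in the IgG than in the Matrigel library, at 61.6 and 23.7 CPM. Of 3 measured between antibody and IgG 1 was lower, Smad4, with 17 UMIs in the IgG and 0 in the antibody members. Among 10 measured SMAD2/3 target genes Itgae and Pmepa1, a feedback inhibitor, were higher and Junb, Skil and Tgif1 lower in the IgG library, and Cdkn1a, Junb and Tgif1 were higher and none lower in the antibody library (median 0.35). Pmepa1 was at 45.7, 98.7 and 104 CPM and the inhibitory Smad7 at 71.6, 94.7 and 146 CPM. By edgeR Itgae and Pmepa1 were the only 2 of 16 SMAD2/3 targets higher in type 1 than in Cd209a dendritic cells, and Smad7 was higher than in macrophages (2.53 ± 0.32, adjusted p = 1.3e-09).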

How the data were processed

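The authors deposited raw UMI counts per gene and cell barcode for each library, from 10x 3' v3 libraries, per the labels' protocols, processed with Cell Ranger 3.0.2 and mm10 per the submitters' processing notes. The annotation release and cell calling settings are not given in the sources used. Of 31053 genes, counts were summed by class and library and scaled to CPM with numpy 2.4.6, scipy 1.17.1 and pandas 2.3.3. Classes were compared with edgeR 4.0.16 (R 4.3.3): quasi-likelihood test, TMM, genes with at least 10 UMIs in 3 of 9 sums, library as block, Benjamini-Hochberg threshold 0.05. Each SE was derived from the test, as the absolute log2 fold change divided by the square root of its F statistic. Each library gave all classes, which is where the pairing comes from. Libraries were compared by exact conditional binomial intervals. Both scripts were tested on simulated data.

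Alternatives were DESeq2 1.42.0, other filters, thinning, removal of cells with high Scrublet scores (scanpy 1.11.5; its automatic threshold marked 2, 3 and 4 cells, so the highest scores, 0.8% per 1000 cells, were taken instead), and omission of each library. No doublets were removed in the main results. The members, the 30 gene lists and the tests were chosen with earlier results of these data known. Between libraries the genes named had the 10 highest and the 10 lowest ratios, with at least 100 CPM and 20 UMIs in the higher library, seen in at least 10% of its members, with an interval that excludes 1 and a level of at least 10% of that in every other class of 50 or more cells. Rule, mitochondrial and ribosomal protein genes were left out. Between classes they were the 10 largest folds each way above 100 CPM in the higher class of every library. From each list up to 4 genes by level and those whose role is described were added. Gene positions are from GENCODE M21. Some genes are counted in the lists but not reported here by name.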

Additional observations from a re-analysis of the deposited data

How the results depend on the processing

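The lower share of type 1 dendritic cells in the IgG than in the Matrigel library (-0.638 points) kept its direction at every setting, at -0.207 points in cells with all 3 rule genes, -0.0450 after thinning to 1000 UMIs, -1.14 among cells with a Ptprc UMI and -54.3 of both dendritic classes. The first 2 of these had intervals that included 0. The antibody minus IgG difference was -0.658 among Ptprc cells and -0.874 of macrophages and dendritic cells, and it reversed to 0.806 points of both dendritic classes. Genes higher in the IgG than in the Matrigel library numbered 148 with a minimum of 30 UMIs and 175 at a fold of 2. Between antibody and IgG there were 91 higher and 86 lower genes in members with all 3 rule genes, and 92 and 93 with a minimum of 30 UMIs. Fewer cells or genes enter these settings. Log2 ratios of named genes reversed for Fcrls (1.62 between IgG and Matrigel with high Scrublet scores removed) and for Sirpa between antibody and IgG (1.5 with all 3 rule genes, 1.42 without members holding Siglech or macrophage UMIs, and 0.020 with equal weight per cell). Between antibody and IgG 20 values of single genes kept their direction but lost the call, with all 3 rule genes, a minimum of 30 UMIs, which removes low genes by construction, or cells removed for high Scrublet scores or for Siglech or macrophage UMIs: Ears2, Errfi1, Glipr1, Gm34084, Lemd2, Nfam1, Nfe2l2, Nr4a3, Sbno2, Sirpa, Tcf4, Tnf, Usp34 and Zdhhc23. Between IgG and Matrigel 2 did, for Fcrls and Mrps25. List medians reversed for lectins (-0.48, IgG to Matrigel, without those members) and plasmacytoid genes (0.14, antibody to IgG, all 3 rule genes).

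Against Cd209a dendritic cells, DESeq2 gave 355 lower genes beside 420 higher, members with all 3 rule genes gave 241 higher, and a fit of only 6 sums gave 223 lower. Without the replicate block, which pairs the classes of a library, 257 genes were higher and 274 lower, and against macrophages 850 and 1170. Leaving out each library gave 142 to 390 higher and 173 to 394 lower genes against Cd209a dendritic cells, and 609 to 740 and 658 to 829 against macrophages, over fewer sums and fewer genes tested. Members with all 3 rule genes gave 633 higher genes against macrophages. Among the 10 largest folds each way against each class, no fold change changed its direction or its call under the settings run for it. Other genes named between classes were less stable. With DESeq2 0 of 11 class II genes and 0 of 11 type 2 genes were higher than in Cd209a dendritic cells, so H2-Ob and Clec12a lost their call. The causes of these changes were not tested. With 18 antibody members and 164289 UMIs, a gene under about 60.9 CPM there rests on 10 UMIs or fewer, and the intervals do not cover variation between animals or library preparations.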

Other observations

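Ligands of receptors on type 1 dendritic cells were measured in other cells of the same libraries. Of those given here, Xcl1 and Flt3l bind receptors that the rule read, and Csf2 and Ifng do not. No natural killer cell class was defined, so Xcl1 in such cells was not measured. Xcl1, the chemokine that Xcr1 binds, stood at 30.1 CPM in T cells of the IgG library (14 UMIs, exact Poisson 95% interval 16.4 to 50.4) and 17.7 CPM in those of the antibody library (25 UMIs, 11.5 to 26.2), with 0 UMIs in the 17 T cells of the Matrigel library. Flt3l, the ligand of Flt3, was at 190, 77.3 and 47.5 CPM in Matrigel, IgG and antibody T cells, from 5, 36 and 67 UMIs. Macrophages held 17.3, 19.9 and 18.5 CPM of Flt3l, and IgG and antibody basophils 82.0 and 64.4 CPM. Csf2, the growth factor GM-CSF, was at 67.1 CPM in IgG basophils and 343 CPM in antibody basophils, from 9 and 48 UMIs. Ifng was at 225 CPM in IgG T cells (105 UMIs) and 27.6 CPM in antibody T cells (39 UMIs), with 0 UMIs in Matrigel T cells and in the type 1 dendritic cells of every library.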
